A study of Homo sapiens with 66 samples.

Results

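NUCKS1, NKRF, EIF3D, IARS2, MFSD1, and ACTR3 are 6 genes whose mRNA fell after targeting of HNRNPC by CRISPR/Cas9 in THP-1 cells, a human monocytic leukemia line. These genes, 6 of the 57820 genes in the deposited gene counts, were followed by their Ensembl identifiers through all groups, days, and RNA fractions, together with the 74 introns inside them. They were chosen by their decrease in hnRNPC-targeted against control cells, and the values of hnRNPC-targeted against control cells in the first study are therefore given as a description with no test. Tests were made where other libraries or other readouts were available: in ADAR+hnRNPC-targeted against ADAR-targeted cells, in a second study with other guide RNAs (gRNAs), and on the introns of the genes in the doubly targeted cells.

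In study 1, a STING-deficient clone of Cas9-transgenic THP-1 was nucleofected with a nontarget control gRNA (CTRL), the hnRNPC gRNA, the ADAR gRNA, both of these (ADAR+hnRNPC), or a GFP gRNA, and total RNA was taken on days 3, 4, and 5. CTRL cells treated with IFN-α were added on day 4, and each of the 16 groups had 3 libraries. In study 2, a WT Cas9-transgenic THP-1 clone received other gRNAs against the same genes. Its 9 groups had 2 libraries each, with total and cytosolic RNA of CTRL, hnRNPC, ADAR, and ADAR+hnRNPC cells and nuclear RNA of hnRNPC cells alone, all on day 4. Singly targeted cells also carried the nontarget gRNA in the place of the absent one, so that all these groups share Cas9 and the nucleofection. The clones and the gRNAs differed between the studies, each study rests on 1 clone, and all targeted cells are a bulk population after nucleofection. In such bulk samples, fewer cells that express a gene and less RNA of the gene per cell cannot be told apart. By the study's methods, biological replicates come from experiments on different days, but the labels do not say which libraries share one.

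hnRNPC is a nuclear protein that binds runs of uridine in nascent RNA, and in this way it keeps the splicing machinery from cryptic splice sites, many of which lie in antisense Alu elements inside introns. Without it, pieces of introns can be spliced into transcripts as cryptic exons, and transcripts with a premature stop can be degraded by nonsense-mediated decay (NMD). ADAR edits adenosine to inosine (A to I) in double-stranded RNA, which inverted Alu elements form. This is background, and neither splice junctions nor RNA decay were measured in the counts used here.

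The proteins of the 6 genes work in different places of the cell. NUCKS1 is a nuclear, chromatin-associated phosphoprotein with a part in DNA repair, and NKRF is a nuclear factor that represses NF-κB target genes. EIF3D is a subunit of the translation initiation factor eIF3, and IARS2 is the isoleucyl-tRNA synthetase of mitochondria. MFSD1 is a lysosomal transporter, and ACTR3 is a subunit of the Arp2/3 complex, which nucleates branched actin filaments.

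The gRNAs of the 2 studies cut HNRNPC at different exonic positions of chromosome 14 (GRCh37), and both are shown with the adjacent NGG motif (PAM) in capitals, since the comparison between the studies rests on them. The first lies at chr14:21702284-21702303 and the second at chr14:21702173-21702192, both on the plus strand. Over the 6 genes, the closest match next to an NGG motif on either strand had 6 mismatches for either gRNA.
hnRNPC gRNA of study 1: gagattcccaatgaatacacGGG
hnRNPC gRNA of study 2: ctcattaacatactgaacgaAGG

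The introns to which the later results return carry runs of T in the gene's strand, the DNA form of a uridine run. The longest run is shown in capitals for the intron of each gene that gained the most RNA in ADAR+hnRNPC cells on day 4 among those called higher, and for intron 1 of NUCKS1, which passed the test on adjusted P but not the 2-fold limit. No MFSD1 intron was called in this direction. The windows lie at chr2:114686272-114686301 (+), chr1:220285463-220285491 (+), chr22:36917815-36917843 (-), chrX:118728904-118728933 (-), and chr1:205710422-205710451 (-) of GRCh37, in this order.
ACTR3 intron 4: tccaataaaTTTTTTTTTTTTaccaaaaca
IARS2 intron 11: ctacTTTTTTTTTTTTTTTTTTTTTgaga
EIF3D intron 7: tctggcTTTTTTTTTTTTTTTTTcatatg
NKRF intron 1: TTTTTTTTTTTTTTTTTTTTTTTTTTTTTT
NUCKS1 intron 1: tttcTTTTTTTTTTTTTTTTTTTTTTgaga

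Libraries of study 1 held 95107690 to 152829008 gene counts, and those of study 2 held 49666958 to 73873756. The genes were deeply counted, with 3109 to 7250 counts per library in study 1 for NKRF, the lowest of the 6, and 47695 to 231867 for NUCKS1. All 6 passed the filter on low counts in both studies (13187 and 13637 genes tested), and levels are given as CPM, which is the count scaled to the library total with TMM factors. HNRNPC, the targeted gene, was at 740.3, 844, and 828 CPM in the 3 ADAR libraries of day 4 and at 309.9, 322, and 336 CPM in the ADAR+hnRNPC libraries. Its level in ADAR+hnRNPC cells was lower than in ADAR cells in every library on all days, although some HNRNPC mRNA remained. For THP-1, 8 of 9 monocytic markers had a mean of at least 1 CPM in study 1, CD14 being the exception. Of the markers of other cell types, CD3E, MS4A1, EPCAM, KRT19, COL1A1, and HBB were below that level. Summed over the list, the monocytic markers reached 362 to 372 CPM in ADAR cells and 393 to 414 CPM in ADAR+hnRNPC cells on day 5. Of the 8 tested markers, ITGAM was called higher and MPO lower in ADAR+hnRNPC against ADAR cells on that day, and the part of such differences in the values of the 6 genes was not tested.

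NUCKS1 (ENSG00000069275.12, chr1:205681950-205719310, minus strand, 6 introns) lost most of its mRNA level by day 5. In CTRL cells it was at 1278, 1281, and 1347 CPM on day 3, at 1382, 1474, and 1485 on day 4, and at 1377, 1529, and 1555 on day 5. In hnRNPC cells the libraries gave 734, 787, and 782 CPM on day 3, then 516, 599, and 615 on day 4, and 379, 441, and 475 on day 5. All 9 hnRNPC libraries lay below all CTRL libraries, and the gap widened with each day. With ADAR targeted in both arms, ADAR cells had 1162, 1246, and 1317 CPM on day 3, then 1180.0, 1365, and 1336 on day 4, and 1192, 1294, and 1233 on day 5. ADAR+hnRNPC cells had 724, 688, and 738 CPM on day 3, then 462, 558, and 563 on day 4, and 427, 456, and 480.4 on day 5. These groups did not overlap on any day. The log2 fold change of ADAR+hnRNPC against ADAR cells was -0.79, -1.29, and -1.45 on days 3, 4, and 5 (SE 0.08 on day 5; edgeR adjusted P = 1.47e-10, 1.7e-16, and 8.07e-19), and the gene was called lower on days 4 and 5. Here, called means a log2 fold change of at least 1 in either direction with an adjusted P of at most 0.05. In the order of the day 5 levels, CTRL and GFP cells overlapped at the top, ADAR cells followed, and ADAR+hnRNPC and hnRNPC cells overlapped at the bottom.

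NKRF (ENSG00000186416.8, chrX:118722300-118740406, minus strand, 2 introns), the repressor of NF-κB targets, showed the smallest decrease of the 6 genes on days 4 and 5. The CTRL libraries of day 5 had 45.9, 47.3, and 46.1 CPM, and the hnRNPC libraries had 38.5, 39.9, and 36.6 CPM on day 3, then 27.5, 29.8, and 30.3 on day 4, and 21.9, 23.1, and 24.2 on day 5. The level of hnRNPC cells thus went down from day to day. In ADAR cells NKRF was at 44.6, 43.9, and 45.8 CPM on day 3, then 43.7, 45.8, and 44.1 on day 4, and 42.9, 44.8, and 44.8 on day 5. In ADAR+hnRNPC cells it was at 35.1, 35.1, and 36.8 CPM on day 3, then 29.7, 30.8, and 30.4 on day 4, and 29.7, 30.6, and 32.2 on day 5. The ADAR+hnRNPC libraries lay below the ADAR libraries on every day, with a log2 fold change of -0.33, -0.56, and -0.52 (SE 0.05 on day 5; edgeR adjusted P = 5.53e-06, 2.61e-11, and 3.64e-11), which did not reach the 2-fold limit of a call. On day 5 the ADAR+hnRNPC libraries also lay above all hnRNPC libraries, whereas on days 3 and 4 these groups overlapped. NKRF shares 2747 bases with UBE2A on the opposite strand, and the strand setting of the counting is not given in the sources used here, so that reads of the 2 genes may not be separated there.

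EIF3D (ENSG00000100353.13, chr22:36906902-36925231, minus strand, 15 introns), the eIF3 subunit, was at 387, 403, and 394 CPM in CTRL cells on day 5. The hnRNPC libraries held 198, 204, and 201 CPM on day 3, then 129, 134, and 139 on day 4, and 115, 117, and 116 on day 5. These lie far below the CTRL libraries. The ADAR libraries held 411, 384, and 397 CPM on day 3, then 388, 425, and 407 on day 4, and 406, 393, and 386 on day 5. The ADAR+hnRNPC libraries held 224, 221, and 214 CPM on day 3, then 150.1, 153, and 159 on day 4, and 158, 163, and 168 on day 5. No library of one group reached the range of the other. The log2 fold change was -0.86, -1.40, and -1.28 (SE 0.04 on day 5; edgeR adjusted P = 2.5e-19, 7.1e-26, and 1.02e-25), with a call on days 4 and 5. Unlike NUCKS1, EIF3D was separated between ADAR+hnRNPC and hnRNPC cells on all 3 days, with the hnRNPC libraries lower, while CTRL, GFP, and ADAR cells overlapped on days 3 and 5.

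IARS2 (ENSG00000067704.8, chr1:220267474-220321383, plus strand, 23 introns), the mitochondrial synthetase, had the largest decrease of the 6 genes by log2 fold change on days 4 and 5. CTRL cells were at 386, 395, and 406 CPM on day 3, then 404, 421, and 422 on day 4, and 399, 439, and 411 on day 5. The hnRNPC libraries were at 189, 197, and 198 CPM on day 3, then 122, 133, and 128 on day 4, and 87.2, 92, and 97.5 on day 5. CTRL cells stayed near one level over the days, whereas hnRNPC cells lost IARS2 mRNA with each day. In ADAR cells the values were 365, 361, and 392 CPM on day 3, then 352, 403, and 383 on day 4, and 351, 371, and 344 on day 5. In ADAR+hnRNPC cells they were 184, 177, and 188 CPM on day 3, then 112, 122, and 119 on day 4, and 96.4, 105, and 111 on day 5. The ADAR+hnRNPC libraries were far below the ADAR libraries on each day and fell further from day to day. The log2 fold change was -1.03, -1.69, and -1.77 (SE 0.05 on day 5; edgeR adjusted P = 1.13e-17, 1.93e-24, and 8.08e-26), and the gene was called lower on all 3 days. On day 5, hnRNPC and ADAR+hnRNPC cells overlapped.

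MFSD1 (ENSG00000118855.14, chr3:158449987-158547508, plus strand, 17 introns), the lysosomal transporter, had 551, 547, and 567 CPM in CTRL cells on day 3, then 570.0, 603, and 627 on day 4, and 597, 622, and 599 on day 5. The hnRNPC libraries were narrow, at 286, 295, and 285 CPM on day 3, then 227, 229.5, and 231 on day 4, and 181, 192, and 183 on day 5. No hnRNPC library came near a CTRL library. ADAR cells had 544, 544, and 558 CPM on day 3, then 525, 589, and 592 on day 4, and 552, 562, and 519.7 on day 5. The doubly targeted cells had 268, 257, and 254 CPM on day 3, then 209, 215, and 214 on day 4, and 182, 184, and 185 on day 5. The groups with and without the hnRNPC gRNA were far apart on each day, and hnRNPC and ADAR+hnRNPC cells overlapped on day 5. ADAR+hnRNPC against ADAR cells gave a log2 fold change of -1.08, -1.42, and -1.57 (SE 0.04 on day 5; edgeR adjusted P = 4.07e-21, 5.29e-25, and 5.13e-27), and MFSD1 was called lower on all 3 days. A lncRNA on the same strand shares 51808 bases of the MFSD1 interval.

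ACTR3 (ENSG00000115091.7, chr2:114647640-114720173, plus strand, 11 introns), the Arp2/3 subunit, fell late. CTRL cells had 773, 771, and 784 CPM on day 3, and by day 5 they had 739, 757, and 776. The hnRNPC cells had 647, 661, and 644 on day 3, then 451, 459, and 455 on day 4, and 295, 329, and 341 on day 5. On day 3 the hnRNPC libraries were still near the CTRL libraries, though below them. ADAR cells were at 737, 733, and 777 CPM on day 3, then 681, 778, and 748 on day 4, and 679.7, 695, and 653 on day 5. Doubly targeted cells were at 670.0, 620.0, and 621 CPM on day 3, then 425, 444, and 428 on day 4, and 368, 364, and 397 on day 5. All ADAR+hnRNPC libraries were below the ADAR libraries of their day, by a small distance on day 3. The log2 fold change was -0.23, -0.77, and -0.84 (SE 0.05 on day 5; edgeR adjusted P = 0.00023, 8.44e-16, and 6.94e-18), and ACTR3 was not called on any day. ACTR3-AS1 shares 958 bases with ACTR3 on the opposite strand.

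**Figure D1:**
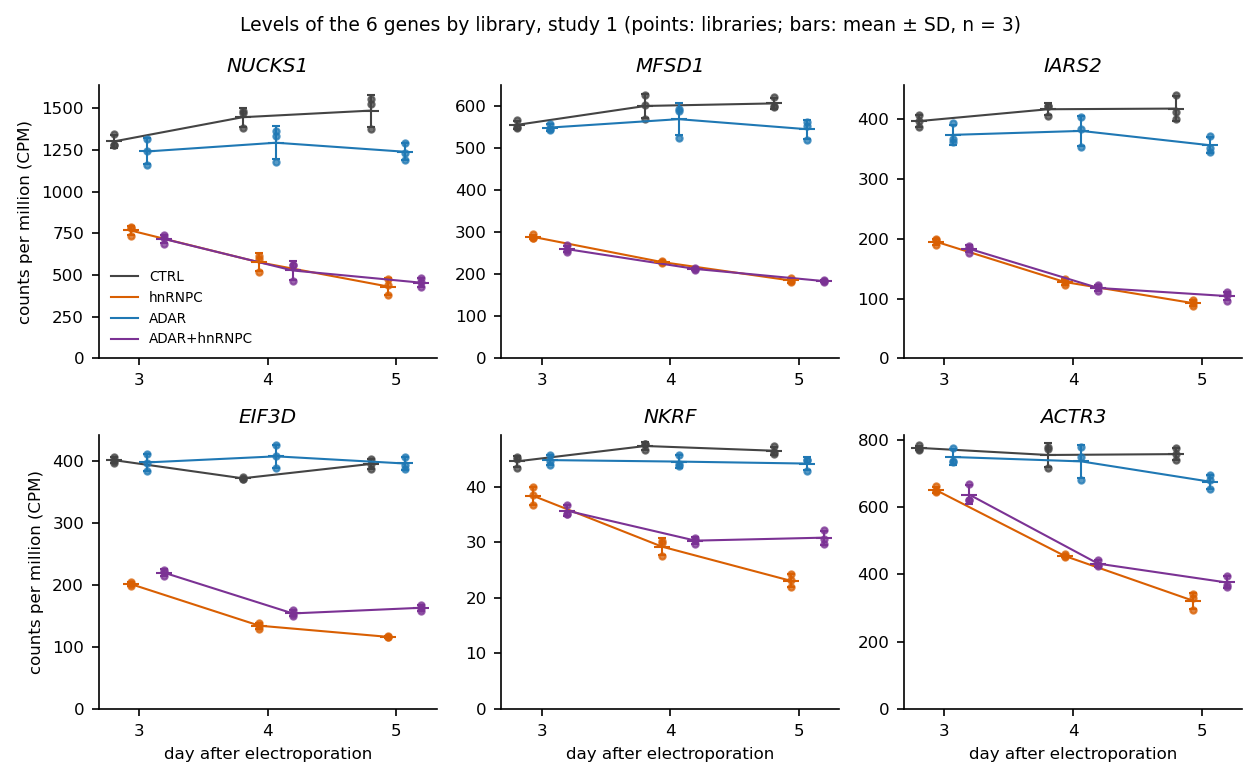
Levels of the 6 genes in study 1, in CPM, against the day after nucleofection, for CTRL, hnRNPC, ADAR, and ADAR+hnRNPC cells; points are libraries, and bars are the mean with SD of 3 libraries. The groups with the hnRNPC gRNA lie below those without it on every day, and for EIF3D, NKRF, and ACTR3 the ADAR+hnRNPC cells end above the hnRNPC cells on day 5.

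Of the 6 genes, 2, 4, and 4 were called lower in ADAR+hnRNPC against ADAR cells on days 3, 4, and 5, and none was called higher by edgeR (0.607, 3.2, and 8.33% of all genes called higher). Without ADAR replicate 3 of day 3, IARS2 was at -0.99 and only MFSD1 was called on that day. Of all genes tested, 0.303% were called lower on day 3, 1.0% on day 4, and 3.97% on day 5. At any fold, 6 of 6 genes were lower with an adjusted P of at most 0.05 on each day, against 16.1, 27.8, and 34.5% of all genes. The median log2 fold change of the 6 genes was -0.82, -1.35, and -1.36 on the 3 days, while that of all genes was -0.00799, 0.0269, and 0.0157. ADAR+hnRNPC libraries lay wholly below the ADAR libraries for 6 of 6 genes on each day, against 22.4, 29.8, and 37.4% of all genes. These libraries were not part of the hnRNPC against CTRL comparison, but they are from the same clone and the same hnRNPC gRNA, and the genes were picked with such results known.

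The decrease grew between day 3 and day 5. When the log2 fold change of ADAR+hnRNPC against ADAR cells on day 3 was subtracted from that on day 5, the difference was -0.65 for NUCKS1, -0.74 for IARS2, -0.61 for ACTR3, -0.49 for MFSD1, -0.42 for EIF3D, and -0.19 for NKRF. All 6 differences had an edgeR adjusted P of at most 0.05 in the test of this difference, from 1.34e-10 for IARS2 to 0.0279 for NKRF. The share of all genes with a decrease at any fold was 24.1% here, and none of the 6 genes reached the 2-fold limit, at which 1.52% of all genes were called lower. On days 4 and 5, the log2 fold changes of ADAR+hnRNPC against ADAR cells were -1.40 and -1.28 for EIF3D, -0.56 and -0.52 for NKRF, -0.77 and -0.84 for ACTR3, and -1.69 and -1.77 for IARS2, beside -1.29 and -1.45 for NUCKS1 and -1.42 and -1.57 for MFSD1. In hnRNPC against CTRL cells of the same days, they were -1.47 and -1.76 for EIF3D, -0.70 and -1.01 for NKRF, -0.73 and -1.24 for ACTR3, -1.70 and -2.18 for IARS2, -1.33 and -1.78 for NUCKS1, and -1.39 and -1.71 for MFSD1. All 6 genes thus moved further down between these days in hnRNPC against CTRL cells than in ADAR+hnRNPC against ADAR cells, a difference that was not tested. HNRNPC mRNA itself was at 401, 394, and 446 CPM in ADAR+hnRNPC cells on day 5 and at 314, 331, and 332 in hnRNPC cells, and its part in this difference was not tested.

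In the comparison by which the genes were chosen, hnRNPC against CTRL cells, 1, 4, and 6 genes on days 3, 4, and 5 were at a log2 fold change of -1 or lower, where 0.394, 1.53, and 3.27% of all genes were. On day 5, IARS2 had 22.1% of its CTRL level, NUCKS1 29%, EIF3D 29.5%, MFSD1 30.6%, ACTR3 42.5%, and NKRF 49.7%. Ordered by log2 fold change among the 13187 genes, IARS2 was number 6 from the lowest, followed by NUCKS1 at 24, EIF3D at 26, MFSD1 at 29, ACTR3 at 206, and NKRF at 419. The genes thus include some of the lowest values of that comparison as well as moderate ones, and these ranks are the choice itself. Without CTRL replicate 1 or hnRNPC replicate 2 of day 3, 2 genes were at -1 or lower on that day.

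Targeting of ADAR alone, the GFP gRNA, and IFN-α left the genes near their CTRL levels. These comparisons use the same CTRL libraries as the comparison by which the genes were chosen. None of the 6 genes was called lower by edgeR or DESeq2 in ADAR against CTRL cells (0.0% of all genes called lower on each day), in GFP against CTRL cells (0.0 to 0.0227%), or after IFN-α (0.129%). At an unadjusted P of at most 0.05, 0, 3, and 4 of the 6 genes differed in ADAR cells on days 3, 4, and 5 (4.79, 15.0, and 28.7% of all genes), 0, 1, and 0 in GFP cells (4.6, 8.49, and 25.7%), and 1 after IFN-α (32.1%). At any fold, 4 genes were lower in ADAR cells on day 5 with an adjusted P of at most 0.05 in edgeR, against 5.01% of all genes. These were NUCKS1 at -0.26 (adjusted P = 0.0197), IARS2 at -0.23 (adjusted P = 0.00471), ACTR3 at -0.17 (adjusted P = 0.021), and MFSD1 at -0.15 (adjusted P = 0.0155). These decreases were small beside those with the hnRNPC gRNA. EIF3D was at 0.00 (SE 0.04) and NKRF at -0.07 (SE 0.05) in the same comparison. After IFN-α, IARS2 was lower, with libraries at 345, 383, and 352 CPM against 404, 421, and 422 in CTRL cells (-0.21, adjusted P = 0.00385 in edgeR; 9.57% of all genes lower at any fold), and the other 5 genes had adjusted P values of 0.217 or more. In GFP cells none of the 6 was lower at any fold in edgeR on any day (0.0, 0.0, and 2.09% of all genes), with adjusted P values of 0.383 or more.

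Study 2 measured the same genes in another clone with other gRNAs. NUCKS1 was at 944 and 915 CPM in the 2 CTRL libraries of total RNA and at 565 and 602 in the hnRNPC libraries, and ADAR cells had 779 and 809.6 against 544 and 545 in ADAR+hnRNPC cells. IARS2 had 272 and 255 CPM in CTRL and 149 and 176 in hnRNPC cells, and 224 and 236 in ADAR and 147 and 151 in ADAR+hnRNPC cells. MFSD1 was at 397 and 325 CPM in CTRL and 211 and 248 in hnRNPC cells, and at 354 and 349 in ADAR and 215 and 205 in ADAR+hnRNPC cells. For all 3 genes, no hnRNPC library reached a CTRL library and no ADAR+hnRNPC library reached an ADAR library. EIF3D had 436 and 346 CPM in CTRL, 261 and 308 in hnRNPC, 387 and 408 in ADAR, and 275 and 251 in ADAR+hnRNPC cells. For ACTR3, the values were 738 and 656 CPM in CTRL, 552 and 618 in hnRNPC, 646 and 705 in ADAR, and 497 and 484 in ADAR+hnRNPC cells, again without overlap in either comparison. For all genes tested, 24.3% had hnRNPC libraries wholly below the CTRL libraries, and 36.8% had ADAR+hnRNPC libraries wholly below those of ADAR cells. NKRF was at 44.5 and 47.3 CPM in CTRL cells, 39.8 and 43.8 in hnRNPC cells, 47.3 and 46.5 in ADAR cells, and 43.2 and 47.4 in ADAR+hnRNPC cells, and its ADAR+hnRNPC libraries overlapped with those of ADAR cells.

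None of the 6 genes was called lower in total or cytosolic RNA between these groups of study 2 by edgeR or DESeq2 (0.44% of all genes called lower in hnRNPC against CTRL total RNA and 0.066% in ADAR+hnRNPC against ADAR total RNA), as no decrease reached 2-fold. At any fold, 4 of 6 genes were lower in total RNA of hnRNPC against CTRL cells, against 4.39% of all genes. These were IARS2 at -0.70 (SE 0.12, edgeR adjusted P = 0.00452), NUCKS1 at -0.67 (adjusted P = 0.00463), MFSD1 at -0.65 (adjusted P = 0.0138), and EIF3D at -0.46 (adjusted P = 0.0373). ACTR3 gave -0.25 (adjusted P = 0.11 in edgeR) and NKRF -0.13 (adjusted P = 0.32). In ADAR+hnRNPC against ADAR cells, 5 of 6 genes were lower at any fold (13.3% of all genes), from -0.74 for MFSD1 (adjusted P = 0.00477) to -0.46 for ACTR3 (adjusted P = 0.00653), and NKRF was at -0.05 (SE 0.08, edgeR adjusted P = 0.665). The log2 fold changes were thus smaller than those of day 4 in study 1, which for ADAR+hnRNPC against ADAR cells were -1.42 for MFSD1 and -0.56 for NKRF. The clone and the gRNAs differ together between the studies and cannot be told apart. HNRNPC mRNA of study 2 was at 856 and 876 CPM in ADAR cells and at 515 and 429 in ADAR+hnRNPC cells, so that more of it was left than on day 4 of study 1, and its part in the smaller changes was not tested.

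Cytosolic RNA showed the same order for most of the genes. NUCKS1 was at 1318 and 1247 CPM in cytosolic RNA of CTRL cells and at 807 and 859 in hnRNPC cells. IARS2 had 218 and 193 CPM in CTRL and 107 and 130.2 in hnRNPC cytosol, and MFSD1 had 134 and 127 in CTRL and 65.6 and 76.9 in hnRNPC cytosol. None of these groups overlapped (24.4% of all genes wholly below). At any fold, 5 of 6 genes were lower in hnRNPC against CTRL cytosol (2.37% of all genes; 0.132% called), with MFSD1 at -0.87 (SE 0.14, edgeR adjusted P = 0.00323), IARS2 at -0.79 (adjusted P = 0.00221), EIF3D at -0.66 (adjusted P = 0.00819), NUCKS1 at -0.62 (adjusted P = 0.00731), and ACTR3 at -0.45 (adjusted P = 0.0196). In ADAR+hnRNPC against ADAR cytosol 2 genes passed, NUCKS1 at -0.49 (adjusted P = 0.0416 in edgeR) and IARS2 at -0.73 (adjusted P = 0.0126), where 0.755% of all genes did (0.0147% called). The change of the hnRNPC response between cytosolic and total RNA was -0.22 to 0.05 on the log2 scale and passed for none of the 6 genes (edgeR adjusted P of at least 0.953); over all genes, 0 passed and 449 had an unadjusted P of at most 0.05.

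The genes differed in the fraction in which their RNA lay. MFSD1 was at 337 and 249 CPM in nuclear RNA of hnRNPC cells and at 65.6 and 76.9 in cytosolic RNA of the same cells, without overlap. It was called lower in cytosolic against nuclear RNA (-2.04, SE 0.14, edgeR adjusted P = 1.5e-08; 18.4% of all genes called lower) and in cytosolic against total RNA of CTRL cells (-1.47, adjusted P = 8.86e-07; 12.6%). NUCKS1 went the other way, with 381 and 517 CPM in nuclear RNA and 807 and 859 in the cytosol (0.89, edgeR adjusted P = 6.3e-06), which was not a call, and it was called (1.13) without nuclear replicate 2 (7.7% of all genes called higher with both). IARS2 was lower in the cytosol (-0.70, adjusted P = 9.48e-05 in edgeR), as was NKRF (-0.26, adjusted P = 0.0122). Such differences were common among all genes in cytosolic against nuclear RNA. By edgeR, 71.2% had an unadjusted P of at most 0.05 in either direction, and 40.4% had cytosolic libraries wholly below the nuclear ones. These fractions are scaled to their own totals, so the values compare shares of each fraction and not molecules per cell. Summed, the monocytic markers were also lower in cytosolic RNA of hnRNPC cells, at 198 to 253 CPM against 591 to 667 in nuclear RNA. The paper took as cytosolic the RNA released by digitonin, and it reports that mitochondrial RNA was separated from it too. RNA low in this fraction need not lie in the nucleus, and where MFSD1 RNA lay was not tested.

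Introns of the 6 genes were measured in study 1 alone. Introns are numbered here from the gene start over the deposited intervals. Of the 74 introns, 39 passed the filter on low counts, with 10 of 11 in ACTR3, 13 of 17 in MFSD1, 6 of 6 in NUCKS1, 5 of 15 in EIF3D, 4 of 23 in IARS2, and 1 of 2 in NKRF. In ADAR+hnRNPC against ADAR cells, 4, 5, and 4 of the 39 were called higher on days 3, 4, and 5, where 1.68, 5.44, and 6.24% of all 21839 introns tested were. Lower calls numbered 1, 5, and 13 on the 3 days, against 0.147, 0.403, and 4.68% of all introns. Of the 39 introns, 11 were above 0 on day 4, and their median log2 fold change was -0.20 against 0.17 over all introns. In ACTR3, 6 of 10 introns were above 0, and in each of the other genes 1 was. Thus single introns rose inside genes whose mRNA fell. The counts rest on few libraries: on day 3, the higher calls were 2 without ADAR replicate 3, ADAR+hnRNPC replicate 1, or ADAR+hnRNPC replicate 2, and the lower calls were 2 without ADAR replicate 1 and 0 without ADAR+hnRNPC replicate 2. The introns called higher on day 4 were introns 4 and 7 of ACTR3, intron 11 of IARS2, intron 7 of EIF3D, and intron 1 of NKRF.

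Intron 4 of ACTR3 (chr2:114685033-114688877, 3845 bases) had the largest rise. It was at 3.08, 1.87, and 2.24 CPM in ADAR cells on day 4 and at 57.6, 34, and 34.6 in ADAR+hnRNPC cells, while CTRL cells had 2.6, 2.11, and 2.08 and hnRNPC cells 67.9, 34.5, and 36.2. All libraries with the hnRNPC gRNA were more than 10 times above the 6 CTRL and ADAR libraries of day 4. The log2 fold change in ADAR+hnRNPC against ADAR cells was 3.52, 4.13, and 4.31 on the 3 days (SE 0.29 and edgeR adjusted P = 8.08e-14 on day 4). It was thus called higher on day 3, when the ACTR3 gene had fallen by little. Its share of all intron counts of ACTR3 was 4.99% ± 0.117 (SD, n = 3) in ADAR cells on day 5 and 49.1% ± 1.34 in ADAR+hnRNPC cells. Intron 7 of ACTR3 (chr2:114697680-114699762) went from 3.59, 4.16, and 3.92 to 13.6, 9.59, and 9.64 CPM on day 4 (1.49, edgeR adjusted P = 5.64e-12), and it was at 0.69 on day 3 and 2.14 on day 5.

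Intron 11 of IARS2 (chr1:220284280-220287655) was at 2.6, 1.87, and 1.48 CPM in ADAR cells on day 4 and at 11.2, 7.85, and 7.5 in ADAR+hnRNPC cells. These did not overlap, and the log2 fold change was 1.73, 2.16, and 2.16 on the 3 days (SE 0.23 and edgeR adjusted P = 1.81e-09 on day 4), whereas the gene was at -1.69 on day 4. Intron 7 of EIF3D (chr22:36916736-36919255) had 6.94, 4.34, and 4.72 CPM in ADAR and 14.2, 9.47, and 10.3 in ADAR+hnRNPC cells, with 1.00, 1.09, and 1.42 on the 3 days (edgeR adjusted P = 0.000518 on day 4). Intron 1 of NKRF (chrX:118727114-118739693) had 3.7, 1.72, and 1.51 CPM in ADAR and 10.5, 6.27, and 5.69 in ADAR+hnRNPC cells, with 1.05, 1.70, and 0.96 (edgeR adjusted P = 0.000162 on day 4), and was not called on day 5. Its deposited interval does not begin with GT and end with AG, so it is not a plain intron of the annotation. In the libraries of day 4, replicate 1 was higher than replicates 2 and 3 in both groups for intron 4 of ACTR3 and for these 3 introns, and it also had more intron counts over all genes, with 23.6, 17.4, and 18 intron counts per 100 gene counts in ADAR cells and 27, 21.6, and 21.2 in ADAR+hnRNPC cells. Between the group means, this ratio over all genes differed by -0.00384, 0.242, and 0.0612 on the log2 scale on days 3, 4, and 5, and its part in the intron values was not tested.

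Introns that fell were led by MFSD1. Intron 5 was at -1.47 on day 4 and intron 8 at -1.15, and both were called lower, with the gene at -1.42. The interval numbered 17 at the gene's end, also called lower at -1.52, lies wholly inside annotated exons of the annotation used here and held 69.3% of the intron counts of MFSD1 in ADAR cells on day 5. By day 5, 9 of 13 MFSD1 introns were called lower and 0 higher. Intron 14 of IARS2 (-1.21) and intron 11 of EIF3D (-1.29) were called lower on day 4 in genes whose introns 11 and 7 had risen. In NUCKS1, intron 6 was at -0.90 on day 4 and was called lower on day 5 (-1.20), with 0 introns called higher on any day. Intron 1 of NUCKS1, singled out after its values were seen, was at 0.88 on day 4 (edgeR adjusted P = 0.00675) with 47.7, 25.4, and 28.8 CPM in ADAR and 82.3, 54.8, and 49.8 in ADAR+hnRNPC cells, where the gene was at -1.29.

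**Figure D2:**
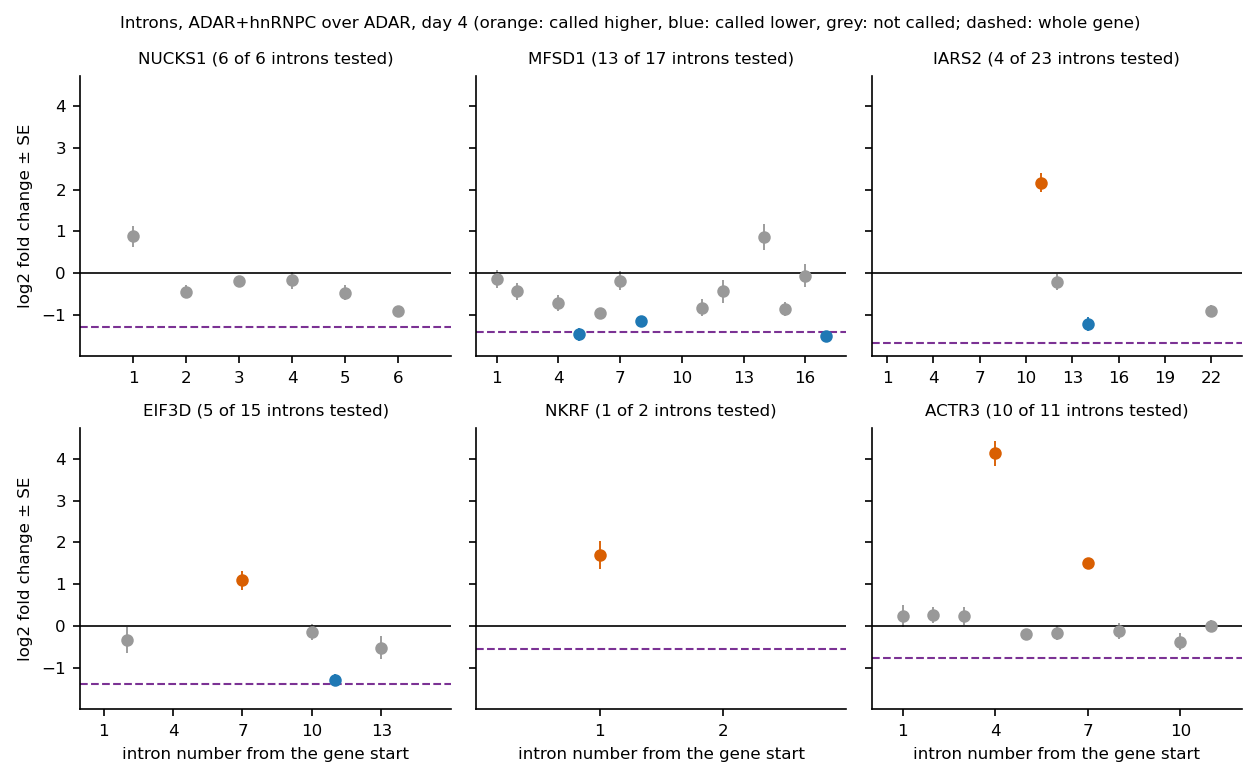
Log2 fold changes with SE of the tested introns of each gene in ADAR+hnRNPC over ADAR cells on day 4, by intron number from the gene start; orange introns were called higher, blue ones lower, and gray ones neither, and the dashed line is the log2 fold change of the whole gene. In ACTR3, IARS2, EIF3D, and NKRF 1 or 2 introns stand above 1 while the gene is below 0, and in MFSD1 3 introns are called lower.

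Runs of at least 10 T, searched in the strand of the gene, were in 5 of 5 introns called higher on day 4, with the longest run of each from 12 to 30 bases (median 17), and in 19 of the other 34 introns tested, with a longest run of 5 to 26 bases (median 10). Long introns hold such a run often. Among introns within 20% of the length of each of the 5, between 37.9 and 88.3% had a run of at least 10 T, and intron 14 of IARS2, which was called lower, has a run of 22. Introns that fell thus hold such runs too.

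The share of intron RNA was then set against the mRNA, as intron counts per 100 gene counts of the same library. ACTR3 had 7.35, 7.46, and 7.24 intron counts per 100 gene counts in ADAR cells on day 5 and 27, 25.7, and 27.3 in ADAR+hnRNPC cells. In NUCKS1, the share was 5.26, 4.83, and 4.88 in ADAR and 13.7, 13.3, and 13.9 in ADAR+hnRNPC cells, and in NKRF it was 7.4, 8.75, and 6.44 in ADAR and 21.2, 20.5, and 17.9 in ADAR+hnRNPC cells. IARS2 went from 10.1, 10.1, and 11.2 in ADAR to 25.3, 24.5, and 25.1 in ADAR+hnRNPC cells. These 4 genes were thus far apart between the groups. EIF3D had 9.71, 10.1, and 10.2 in ADAR and 20.5, 19.5, and 21.8 in ADAR+hnRNPC cells, and MFSD1 had 40.4, 41.4, and 39.6 in ADAR and 47, 46.4, and 47 in ADAR+hnRNPC cells. The share was wholly above in ADAR+hnRNPC cells for 6 of 6 genes on day 5, against 20.9% of the 11491 genes with introns counted, and the distance was smallest for MFSD1. Over the 3 days, the share in ADAR+hnRNPC cells was 3.14-fold that in ADAR cells for NKRF, 2.75-fold for ACTR3, 2.65-fold for NUCKS1, 2.1-fold for IARS2, 1.92-fold for EIF3D, and 1.21-fold for MFSD1. An exact permutation test of the 3 against 3 libraries within each day gave P = 0.00025 (two-sided) for each of the 6 genes, which is the smallest value that its 8000 permutations can give. This test takes libraries of different days as independent, but cells of the same nucleofection may have been harvested on several days. If so, this and the other exact permutation P values are too small. By the same test, the share was higher with a P of at most 0.05 for 19.4% of the 11491 genes. The denominator of the share is the mRNA by whose decrease the genes were chosen, so that the 6 of 6 are no independent support for a gain of intron RNA.

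This share rises when introns gain or when the mRNA falls, and the 2 parts differed by gene. Summed intron counts alone, as log2 CPM, were higher in ADAR+hnRNPC cells by 1.18 for NKRF (exact permutation P = 0.00025) and by 0.84 for ACTR3 (P = 0.0005), and lay 0.23 higher for NUCKS1 without passing the test (P = 0.117). They were lower for MFSD1 (-1.07, exact permutation P = 0.00025), IARS2 (-0.43, P = 0.00025), and EIF3D (-0.24, P = 0.0225). Some deposited intervals lie wholly inside annotated exons, and the one at the end of MFSD1 holds most of the intron counts of that gene. With these intervals left out, an alternative chosen after the values were seen, the sums differed by -0.53 for MFSD1 (exact permutation P = 0.002), -0.41 for IARS2 (P = 0.00025), and -0.21 for EIF3D (P = 0.04425), and the share was 1.77-fold for MFSD1, 2.12-fold for IARS2, and 1.96-fold for EIF3D. Without the intron that rose most, chosen after the values were seen, the share was still 1.1 to 1.66 times that in ADAR cells for the 6 genes.

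Editing-cluster regions (ECRs) are stretches around clusters of A-to-I editing sites, whose counts include unedited reads. In study 1, 5 tested ECRs lie in NUCKS1 and 1 in EIF3D, and 1 in ACTR3 was tested in study 2 alone. The ECR at chr1:205707918-205710707, in intron 1 of NUCKS1, had 4.32, 4.29, and 3.75 CPM in ADAR cells on day 5 and 12.2, 12.2, and 12.7 in ADAR+hnRNPC cells of study 1. It was called higher on days 4 and 5 (1.54 and 1.58, edgeR adjusted P = 6.95e-06 and 2.9e-06), where 7.16 and 7.59% of all ECRs were. The same ECR was called higher in study 2, in total RNA (1.23, adjusted P = 0.00108 in edgeR; 9.64% of ECRs) and in the cytosol (1.55, adjusted P = 0.00109; 1.5%). In hnRNPC against CTRL cells of study 2 this ECR was not called, at 0.02 in total RNA and 0.27 in the cytosol (edgeR adjusted P = 0.965 and 0.521). Its mean in total RNA was 5.33 CPM in CTRL, 5.41 in hnRNPC, 2.68 in ADAR, and 6.29 in ADAR+hnRNPC cells. In ADAR+hnRNPC against ADAR cells, an ECR that rose thus lay inside a gene whose mRNA fell in the same libraries. By contrast, the ECR over introns 2 and 3 of NUCKS1 (chr1:205695189-205697271) went down with the gene, at -1.35 and -1.46 on days 4 and 5, as did the EIF3D ECR at chr22:36912965-36915454 (-1.39 and -1.24). Both were called lower on those days, where 1.15 and 5.58% of all ECRs were. An ECR over parts of introns 1 and 2 of NUCKS1 and the exon between them (chr1:205697977-205700110) was at -0.91 on day 4 and was called lower on day 5 (-1.36). The last pair, at chr1:205704140-205706217 and chr1:205712853-205715571, was called in total RNA of study 2 alone (1.22 and 1.00), with 0.49 and 0.85 on day 4 of study 1. Neither was called without replicate 2 of ADAR or of ADAR+hnRNPC total RNA. In hnRNPC against CTRL total RNA of study 2, the pair was at -0.10 and 0.13 (edgeR adjusted P = 0.852 and 0.828). The means in total RNA were 3.68 and 8.03 CPM in CTRL, 1.71 and 3.70 in ADAR, and 4.01 and 7.45 in ADAR+hnRNPC cells.

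Reads at single editing sites showed where along NUCKS1 the reads rose most on day 4. Of 225 NUCKS1 sites with at least 10 reads on day 4, 3 neighboring sites at positions 205710173, 205710209, and 205710210 of chromosome 1 stood apart. They lie 212 to 249 bases downstream of the end of the window shown above, which holds the T run of NUCKS1 intron 1. Their mean read level in CPM was 0.259, 0.106, and 0.191 in ADAR cells and 2.57, 2.18, and 2.06 in ADAR+hnRNPC cells on day 4. On day 5 they were 0.26, 0.191, and 0.227 in ADAR and 4.14, 2.99, and 3.38 in ADAR+hnRNPC cells. All ADAR+hnRNPC libraries were above all ADAR libraries on both days. The ratio of the group means was 2.84-, 12.2-, and 15.5-fold on days 3, 4, and 5, whereas the other 222 sites had log2 ratios between -0.68 and 1.15 on day 4 (median 0.06). The rise in intron 1 was not confined to the 3 sites. In the 1-kb stretches that begin 3 and 4 kb from the gene start, all sites were higher, with medians of 0.72 (11 sites) and 0.64 (13 sites). Stretches that begin 21 to 25 kb from it had medians of -0.41 to -0.15. CTRL cells had 0.316, 0.104, and 0.151 and hnRNPC cells 0.778, 0.742, and 0.616 CPM on day 4. These sites were picked after their values were seen, and their values are a description with no test. Whether these reads come from a spliced or an unspliced transcript cannot be told apart from the counts.

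**Figure D3:**
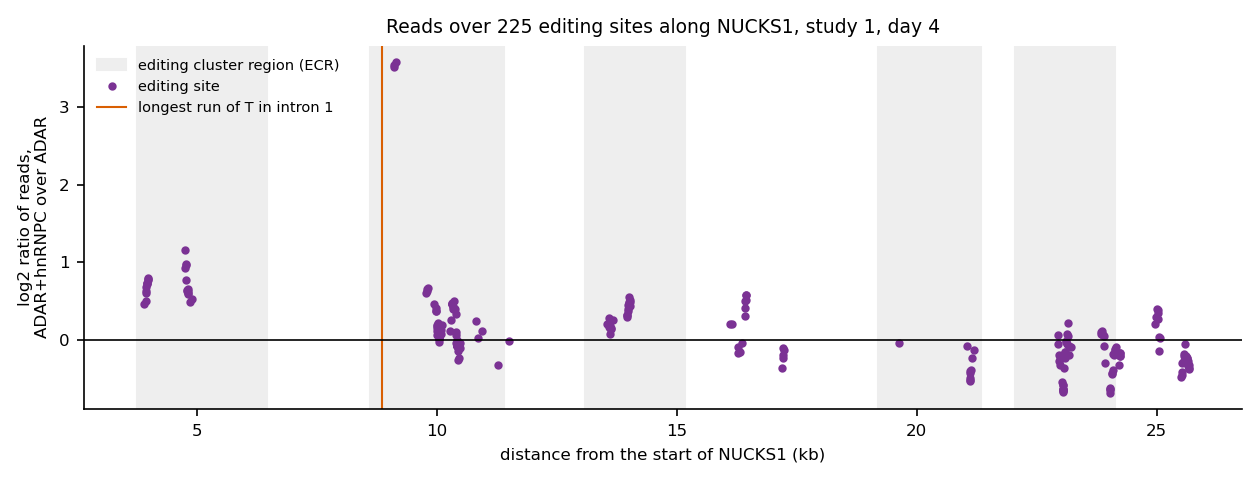
Log2 ratio of reads in ADAR+hnRNPC over ADAR cells on day 4 at 225 editing sites along NUCKS1, by distance from the gene start in kb; gray bands are ECRs, and the orange line is the longest T run of intron 1. The 3 sites next to the T run stand above 3, and the other 222 sites lie between -0.68 and 1.15.

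Editing itself could be read in 2 of the genes. In NUCKS1, over 175 sites of study 1, the edited share of reads differed by -1.67 percentage points between ADAR and CTRL cells over the 3 days (exact permutation P = 0.00025), with 1.55% against 3.41% on day 4. In ADAR+hnRNPC against hnRNPC cells, the difference was -2.51 points over 150 sites (exact permutation P = 0.00025). These values sum reads over sites, so that deeply covered sites weigh more. With each site weighing the same, the latter difference was -2.15 points (exact permutation P = 0.00025). At the 3 sites that stood apart, 2 of 2452 reads were edited in ADAR+hnRNPC cells and 2 of 927 in hnRNPC cells on day 4. EIF3D differed by -1.83 points over 40 sites in ADAR+hnRNPC against hnRNPC cells (exact permutation P = 0.00025), and by -0.36 points over 37 sites in ADAR against CTRL cells, which did not pass the test (exact permutation P = 0.352). Most of these sites are thinly covered, and with at least 20 reads in each library 4 NUCKS1 sites were left for ADAR against CTRL cells, with -3.14 points (exact permutation P = 0.058). In ADAR+hnRNPC against hnRNPC cells, the same limit left 12 NUCKS1 sites with -0.98 points (exact permutation P = 0.00125) and 13 EIF3D sites with -0.97 points (exact permutation P = 0.00225). MFSD1 had 1 usable site with 0 edited reads, and IARS2, NKRF, and ACTR3 had none with enough reads.

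Genes that work with the 6 were looked at in ADAR+hnRNPC against ADAR cells on day 5, from lists fixed with earlier results of these data known. Of the 12 eIF3 subunits tested besides EIF3D, none was called by edgeR, 10 were lower and 1 higher at any fold, and the median log2 fold change was -0.34 against -1.28 for EIF3D. EIF3E, another subunit of the complex, was the lowest at -0.77 (SE 0.06), followed by EIF3L at -0.68. Of 9 genes of the Arp2/3 complex tested besides ACTR3, none was called by edgeR, 7 were lower and 1 higher at any fold, with a median of -0.38. Its subunit gene ARPC5 was at -0.77 and the related ARPC5L at 0.68. Of 17 other aminoacyl-tRNA synthetases tested, the mitochondrial ones and the cytosolic IARS1, the median log2 fold change was -0.14. The cytosolic IARS1 was at 0.09 (SE 0.05), while IARS2 was at -1.77. The median of all genes was 0.0157, and 34.5% of all genes were lower at any fold.

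For the smaller sets, 3 of 5 genes known as NKRF targets or partners were tested. CXCL8, a chemokine gene reported as an NKRF target, was called higher at 2.01 (edgeR adjusted P = 3.82e-11; 8.33% of all genes called higher), DHX15 was at -0.25, and XRN2 at 0.04. On days 3 and 4, CXCL8 was at -0.17 and 0.83 and was not called. In hnRNPC against CTRL cells on day 5, with NKRF at -1.01, none of the 3 genes was called, and their values ran from -0.97 to 0.14. None was called in study 2 either. A link between the NKRF and CXCL8 levels was not tested. GLMP, whose protein is the partner of MFSD1 in the lysosome, was at -0.38 (SE 0.07, edgeR adjusted P = 2.36e-05), and RAD51AP1, the paralog of NUCKS1, at -0.29 (SE 0.06, adjusted P = 6.1e-05). Neither gene reached the 2-fold limit.

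The genes most like the 6 in pattern were sought over the 16 group means of study 1, by the Pearson correlation with the mean of the 6 genes. They were GPD1L (r = 0.994), RPGRIP1L (0.993), SRPK1 (0.993), PROS1 (0.992), and PPHLN1 (0.99). The groups share 1 clone and include the hnRNPC and CTRL groups by which the 6 genes were chosen, and the value is a description. Over the 9 group means of study 2, the same 5 genes had an r of 0.511 for GPD1L, 0.811 for RPGRIP1L, 0.72 for SRPK1, 0.658 for PROS1, and 0.812 for PPHLN1. In ADAR+hnRNPC against ADAR cells on day 5, their log2 fold changes were -1.08, -1.30, -1.03, -1.71, and -0.60 in the same order. Among the 6 genes, the 15 pairs had an r of 0.919 to 0.997 over the groups of study 1 (median 0.966) and of -0.332 to 0.886 over those of study 2 (median 0.578). As the genes were chosen for their fall in groups of study 1, a high r there is no separate support for a shared pattern.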

How the data were processed

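Total RNA, and in study 2 also cytosolic and nuclear RNA, was sequenced from ribosomal RNA-depleted, stranded libraries. The authors aligned reads to GRCh37 with STAR (2.5.4a) and deposited counts of uniquely mapped reads per gene (GENCODE v19, featureCounts), per intron (gene intervals minus merged principal exons), per ECR, and per base at editing sites, all raw and not normalized. The strand setting of the counting is not given in the sources used here. The 312 sample columns used were all matched to labels, and 0 columns had no sample. Gene names, exons, and overlaps come from a later GENCODE annotation lifted to GRCh37, and printed sequences from the GRCh37 genome or, for gRNAs, the study's designs.

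The 6 genes, their partner lists, and the tests were chosen with earlier results of these data known. Counts were scaled by TMM and fitted with edgeR (4.0.16; R 4.3.3) over all groups of a study by the quasi-likelihood test, for features with an average log2 CPM of at least 0.5 (genes), 1 (introns), or 4.5 (ECRs), with gene totals as library sizes throughout and P values adjusted by Benjamini-Hochberg over all features. The prior count was 2. Named in the text are all 6 genes, HNRNPC, up to 3 called introns per gene (otherwise the 1 with the largest change), all tested ECRs of the genes, partner genes that were called or otherwise the 2 with the largest change, and the 5 genes closest in pattern. Intron shares and editing (at least 10 reads per site in every library) were compared by two-sided exact permutation of libraries within days. This takes libraries of different days as independent, which the labels do not show. Alternatives were DESeq2 (1.42.0), limma-voom (3.58.1), other scaling, no filter on low counts, a replicate block, GFP cells as the control, other library sizes, and leaving out each replicate. In simulated counts with true log2 changes of 1.5 or 2.5, at least 99.0% of the changed features were recovered with 0 false calls. These changes lie above the limit of 1, and all features had the same dispersion. Smaller changes, such as those of the 6 genes in study 2, were not simulated.

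Same-numbered libraries deviated together in 7 of 13 comparisons of study 1, with every correlation of their deviations over 0.1 (0.38 to 0.698 for ADAR+hnRNPC and ADAR cells on day 4). Over all comparisons the correlations ran from -0.168 to 0.698 in study 1 and from -0.337 to 0.313 in study 2, and the labels do not say what a number stands for. No pair of replicates agreed within counting noise (chi-square per gene of at least 12.1). Some single-gene results of the marker and partner lists are not reported here.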

Additional observations from a re-analysis of the deposited data

Results flagged for a closer look

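The change of ADAR+hnRNPC against ADAR cells differed between day 3 and day 5 for all 6 genes by the test of this difference in edgeR. The difference was -0.65 for NUCKS1, -0.49 for MFSD1, -0.74 for IARS2, -0.42 for EIF3D, -0.19 for NKRF, and -0.61 for ACTR3 on the log2 scale, with all 6 lower on day 5.

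Of the 3 NUCKS1 editing sites that stood apart in study 1, 2 were also covered in study 2, whose site reads entered no comparison above. At these 2 sites, ADAR+hnRNPC cells had 5.27-fold the reads of ADAR cells in total RNA (1.19 and 1.45 against 0.303 and 0.198 CPM) and 5.35-fold in the cytosol (2.13 and 2.13 against 0.516 and 0.281). CTRL cells had 0.193 and 0.412 CPM in total RNA, and hnRNPC cells 0.501 and 0.506. The libraries of ADAR+hnRNPC cells were above all others of total RNA, but the sites were picked for their values in study 1 and this difference was not tested.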

How the results depend on the processing

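Of 227 counts over the 6 genes, their introns, ECRs, and partners that were recomputed with 1 library left out, 13 moved by more than 1.5 times, as did 18 of 228 under the other alternatives. DESeq2, limma-voom, other size factors, and the replicate block changed no count of the 6 genes called. At any fold with an adjusted P of at most 0.05, a setting added after the data were seen, 6 genes were lower in ADAR+hnRNPC against ADAR cells on day 3 and 6 in the difference of day 5 and day 3, 4 in ADAR against CTRL cells on day 5, 1 after IFN-α, and in study 2 4 and 5 in hnRNPC against CTRL total and cytosolic RNA and 5 and 2 in ADAR+hnRNPC against ADAR. With GFP cells as the control, 2 genes were at -1 or lower in hnRNPC cells on day 3. Leaving out 1 library gave 1 to 2 on day 3 and 5 to 6 on day 5 there, 1 to 2 for ADAR+hnRNPC against ADAR cells on day 3, and 0 to 1 genes called higher in cytosolic against nuclear RNA. Without the filter on low counts, introns called lower were 3, 17, and 34 on days 3, 4, and 5, and partner genes called higher were 1, 1, and 2. With library sizes from intron totals, 10 introns were called lower on day 4. Leaving out 1 library gave 2 to 4, 4 to 7, and 4 to 5 introns called higher and 0 to 2, 5 to 7, and 12 to 13 lower on the 3 days, 1 to 2 ECRs higher and 2 to 3 lower on day 4, and 1 to 3 ECRs higher in total RNA of study 2. Taking introns alone in place of the share left 2 genes higher and turned MFSD1 (-1.07), IARS2 (-0.43), and EIF3D (-0.24). At 20 reads per site, 0 genes passed for editing in ADAR against CTRL cells, as fewer sites were left. Small values changed sign for NKRF in ADAR+hnRNPC against ADAR total RNA of study 2 (-0.1193 to 0.0136 on leaving out 1 library, the latter without ADAR+hnRNPC replicate 1) and for NUCKS1 ECRs, at chr1:205704140-205706217 on day 3 (-0.0006 to 0.5275, the former without ADAR replicate 3), at chr1:205712853-205715571 on day 5 (0.0152 with ECR totals), and at chr1:205697977-205700110 in total RNA of study 2 (-0.1617 with ECR totals, and -0.0071 to 0.0787 on leaving out 1 library, the former without ADAR+hnRNPC replicate 2). Under the replicate block, which is paired by number, the NUCKS1 ECR at chr1:205712853-205715571 was at 0.9959 in total RNA of study 2 and no longer called, all-gene counts moved from 9 to 17 higher and 0 to 1 lower in ADAR against CTRL cells on day 4, from 0 to 2 higher in GFP cells on day 4, and from 32 to 59 higher in ADAR+hnRNPC against ADAR cytosol, and no other call named here changed. Without the filter, all genes called lower in ADAR+hnRNPC against ADAR cells went from 40, 132, and 524 to 97, 261, and 1014 on the 3 days, and from 201 to 307 in the difference of day 5 and day 3. In study 2 they went from 60 to 291 and from 18 to 49 in hnRNPC against CTRL total and cytosolic RNA, from 9 to 39 and from 2 to 20 in ADAR+hnRNPC against ADAR, and from 1712 to 3591 and from 2503 to 5772 in cytosolic against total and nuclear RNA. After IFN-α, 17 became 125 without the filter, 44 with limma-voom, and 9 with GFP cells as the control. All introns called higher went from 366, 1187, and 1362 to 898, 4909, and 8665 and those lower from 32, 88, and 1021 to 184, 578, and 5646 without the filter, and 196 were lower on day 4 with intron totals. With ECR totals, 158 in place of 238 ECRs were higher in total RNA of study 2. Where the cause of a change is not given, the cause was not tested. With 2 or 3 libraries per group and thinly covered introns of IARS2 and EIF3D, most introns of these genes could not be tested at this depth.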
